A study of Mus musculus with 6 samples.

Results

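The miRNAs miR-221-3p and miR-222-3p were followed in tumours of C57BL/6 mice that carried Hepa1-6 cells, a mouse hepatoma line, inoculated in the right flank. They were taken by name from the array design, as every probe that is not a control and whose systematic name is mmu-miR-221-3p or mmu-miR-222-3p. These were 2 of the 1881 mouse miRNAs with probes and 2 of the 388 bright enough to be tested. Each group held 3 tumours, numbered as replicates, with 1 array each. The labels do not state that every replicate was a separate mouse, so the p-values measure the spread between these samples. The treated mice received an agent named only as GLE, with a daily amount of 0.023 g stated per 10 g mouse and no duration. The model mice, whose treatment label reads none, received 0.2 ml of 0.9% NaCl daily over 28 days by the protocol. All 6 samples share the strain, the tumour line, the inoculum of 0.1 ml and an age label of 28 d. The model group is therefore a tumour-bearing control, and no tissue without tumour was analysed here. The labels do not say whether the inoculated line is a single clone.

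miRNAs are short RNAs that pair with messenger RNAs, mainly through their seed, the bases near the 5′ end, and lower the stability and translation of those messages. miR-221 and miR-222 are encoded close together on the X chromosome and are usually described as one cluster. Their known targets include Cdkn1b, which encodes the cyclin-dependent kinase inhibitor p27, and they are commonly raised in hepatocellular carcinoma, where they promote proliferation. Outside tumour cells they are known from endothelial and vascular smooth muscle cells. No messenger RNA was measured on these arrays, so no target level stands beside the values.

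The mature sequences are shown because the members share the seed and differ in the part that the array probes read. They are from RefSeq on GRCm38.p6, 5′ to 3′, with the seed (bases 2 to 8) in capitals, and both members were matched by name. The first is at chrX:19146307-19146329 and the second at chrX:19146901-19146923, both on the minus strand.
miR-221-3p: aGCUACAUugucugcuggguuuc
miR-222-3p: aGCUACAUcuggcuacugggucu
Both are 23 bases long and identical over their first 8 bases. Laid side by side from the 5′ end without gaps, 11 of the 23 positions were the same. A search of the 1679 mature mouse sequences in the RefSeq table found 3 with this seed, and all 3 had probes on the array. The third was miR-1928, which lies on another chromosome, at chr1:74206562-74206578 on the minus strand.
miR-1928: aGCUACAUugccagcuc
It is 17 bases long, and 0 of its 172 spots used over the 6 arrays were well above background.

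The hairpins from which the members are cut are shown with the mature 3p arm in capitals. Mir221 lies at chrX:19146294-19146388 and Mir222 at chrX:19146893-19146971, both on the minus strand of GRCm38.p6, with 504 bases between them.
Mir221: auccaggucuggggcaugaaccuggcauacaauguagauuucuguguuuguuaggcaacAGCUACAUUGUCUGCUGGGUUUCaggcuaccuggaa
Mir222: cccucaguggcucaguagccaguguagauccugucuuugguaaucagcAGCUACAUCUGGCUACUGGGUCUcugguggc
The opposite arms of the same hairpins, miR-221-5p and miR-222-5p, were not measurable. miR-221-5p had 0 of 175 used spots well above background and miR-222-5p had 0 of 178, so only the 3p arms could be compared. The sequence of miR-221-5p was as follows, again with bases 2 to 8 in capitals.
miR-221-5p: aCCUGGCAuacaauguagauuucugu

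Each member was read by 2 probes. They are printed 5′ to 3′ as in the files, with capitals for the bases that pair with the mature miRNA beyond the first 8 bases that the members share.
miR-221-3p, shorter probe: GAAACCCAGCAGACAatgt
miR-221-3p, longer probe: GAAACCCAGCAGACAatgta
miR-222-3p, shorter probe: ACCCAGTAGCCAG
miR-222-3p, longer probe: ACCCAGTAGCCAGa
The probes of miR-221-3p pair with its bases 5 to 23 and 4 to 23, and those of miR-222-3p with its bases 9 to 21 and 8 to 21, so the miR-222-3p probes do not reach the last bases of the RefSeq sequence. In its best ungapped position on the other member, with overhanging ends allowed, a miR-221-3p probe matched 11 of 19 or 11 of 20 bases, and a miR-222-3p probe 10 of 13 or 10 of 14. Whether any of the signal was shared by cross-hybridisation was not tested. The files place the miR-221-3p probes on chromosome X of mm9 from 18723501 to 18723484 and to 18723483, and the miR-222-3p probes from 18724087 to 18724076 and to 18724075. These spans are 1 base shorter than the probes, so their counting convention is not settled. Different probes bind with different strength, so the level of one member cannot be set against that of the other, and the values below are compared only between tumours.

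All 6 arrays came from 1 slide and 1 scan. The GLE arrays lay in slide row 1 and the model arrays in slide row 2, so the row and the treatment cannot be told apart. The 75th percentile intensity of the 636 probes detected on all 6 arrays, by which each array was divided, ran from 203 to 364 intensity units, and between 378 and 458 miRNAs were detected per array. The number of arrays limits the precision, with a median 95% interval of ± 0.54 on the log2 scale. Of the hepatocyte markers, miR-122-5p was detected on 2 arrays and miR-802-5p on 0, so the defining miRNA of differentiated hepatocytes was not detected in 4 of the 6 tumours. Since whole tumour pieces were measured, a change in the number of cells of one type and a change in miRNA per cell cannot be told apart in any value below.

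Both members were measured well. Each probe had 15 spots per array, of which 12 to 15 were used after outlier spots were left out, and every used spot was well above background. The probe means of miR-221-3p ran from 51.1 to 99.5 intensity units for the shorter probe and from 75.6 to 154.5 for the longer one. Those of miR-222-3p ran from 58.8 to 104.4 and from 91.0 to 157.1. The lowest mean signal of a detected probe was 11.8 to 13.2 intensity units on these arrays. Spots of one probe on one array had a coefficient of variation with a median of 4.61% to 8.11% per probe, and the standard error of a probe mean was at most 0.037 on the log2 scale. Over the 6 arrays the 2 probes of miR-221-3p ran together with r = 0.905 and those of miR-222-3p with r = 0.995, across arrays that share the same hybridisation and scaling.

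After the reported scaling, miR-221-3p stood at nearly the same level in every tumour. On the log2 scale of scaled signal its values were -1.71, -1.55 and -1.52 for the GLE tumours, replicates 1 to 3, and -1.53, -1.77 and -1.60 for the model tumours. The highest tumour was GLE replicate 3, followed by model replicate 1, and the lowest was model replicate 2, so the groups overlapped. The mean was -1.59 ± 0.10 under GLE and -1.63 ± 0.13 in the model group (SD, n = 3). The difference, GLE minus model, was 0.040 ± 0.16 (SE, limma adjusted p = 0.963 over all 388 tested miRNAs, 3 arrays a group), and its sign turned under 7 of the 15 alternatives that kept every array. Some of the others, such as the replicate block, could not change the value. As a ratio the difference was 1.03-fold, with a 95% interval of 0.789-fold to 1.34-fold. The shorter probe gave 0.077 and the longer one 0.0024. With 3 tumours per group, changes inside this interval stay undecided in either direction. The interval is not adjusted for the 388 miRNAs tested, so its ends are not limits of detection.

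Under the reported scaling, miR-222-3p was higher in GLE replicates 1 and 3 than in the other 4 tumours. The GLE tumours, replicates 1 to 3, stood at -1.20, -1.51 and -1.15, and the model tumours at -1.61, -1.66 and -1.51 in the same order. GLE replicate 2 lay level with model replicate 3, above it by 0.00053, so the groups did not overlap only by a margin far below the standard error of a probe mean. Of the 388 tested miRNAs, 26, or 6.7%, had groups that did not overlap, 18 with all GLE tumours above (4.64%) and 8 with all below (2.06%). The gap from GLE replicate 1 down to GLE replicate 2 was 0.30, against a range of 0.15 among the 4 lower tumours. The mean was -1.29 ± 0.19 under GLE and -1.59 ± 0.077 in the model group (SD, n = 3). Before scaling, both probes of miR-222-3p were brightest in GLE replicate 2 (104.4 and 157.1 intensity units). That array also had the largest divisor in the scaling (364), so its place among the lower tumours depended on the scaling.

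The difference of miR-222-3p was 0.31 ± 0.17, a 1.24-fold higher mean with a 95% interval of 0.933-fold to 1.64-fold, and it did not pass the threshold (limma unadjusted p = 0.118, adjusted p = 0.935). Its 2 probes gave 0.32 and 0.29. The positive sign held under all 15 alternatives that kept every array and under the 6 that left 1 array out. Among the 15, the other filters on dim probes, the higher floor, another variance fit of limma and the replicate block left the value at 0.31. Its sign could not turn under these. By limma with p-values adjusted by Benjamini-Hochberg, 0 of 388 tested miRNAs, or 0%, fell below 0.05, and 6, or 1.55%, had an unadjusted p below 0.05, neither member among them. Without GLE replicate 2 the difference was 0.42 (limma unadjusted p = 0.0396, adjusted p = 0.162). Without that array 107 of the 388 tested miRNAs had an unadjusted p below 0.05 and 2 an adjusted one, so such a p was common there.

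A single spot bears on this value. On the array of model replicate 1, 1 of the 15 spots of the longer miR-222-3p probe read 1606 intensity units, while the other 14 had a mean of 128, and Feature Extraction had marked it as an outlier. With outlier spots kept, the value of model replicate 1 rose from -1.61 to -1.13, above all other tumours, and the difference between groups was 0.14 (limma adjusted p = 0.909). Taking the median of all used spots instead of their mean gave 0.27. The other outlier spots of the members, 11 in all, read between 62.7 and 119.8 intensity units.

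**Figure D1:**
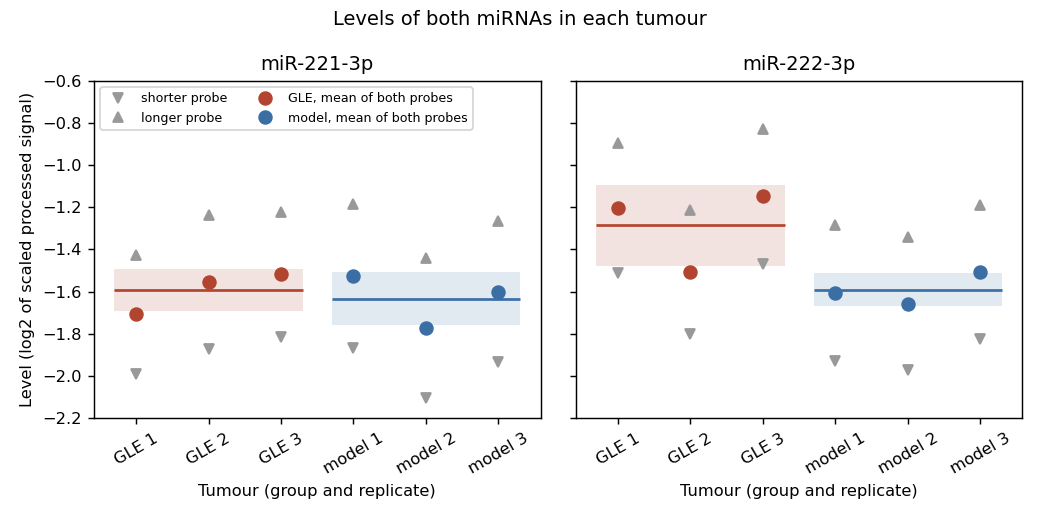
The vertical axis gives the level of miR-221-3p (left) and miR-222-3p (right) in each tumour, as log2 of scaled processed signal; large points are means of both probes, grey triangles the single probes, lines the group means and bands ± 1 SD (n = 3). miR-221-3p ranged from -1.77 to -1.52 with the groups mixed, while miR-222-3p stood at -1.20 and -1.15 in GLE replicates 1 and 3 and at -1.51 or lower in the other 4 tumours.

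The members ordered the tumours differently, GLE replicate 1 standing at rank 5 of 6 for miR-221-3p and at rank 2 for miR-222-3p. Within each array the log2 level of miR-221-3p minus that of miR-222-3p, a quantity that scaling between arrays by a factor leaves as it is, came to -0.50, -0.047 and -0.37 for the GLE tumours in order of replicate and 0.083, -0.11 and -0.095 for the model tumours. Only its differences between tumours can be read, since the probes differ. GLE replicates 1 and 3 were the lowest, and GLE replicate 2 fell between model values. The mean was -0.31 ± 0.24 under GLE and -0.042 ± 0.11 in the model group (SD, n = 3), a difference of -0.27 (two-sided exact permutation p = 0.3 over all 20 relabelings, smallest possible 0.1). A different response of the members was thus not shown. Without GLE replicate 2 the difference was -0.40 and the groups no longer overlapped (exact permutation p = 0.1, the smallest possible), without GLE replicate 1 it was -0.17 (exact permutation p = 0.5), and with outlier spots kept it was -0.12 (exact permutation p = 0.6).

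Over the 6 tumours the correlation of the members was weak, with Pearson r = 0.185 (exact permutation p = 0.749 over 720 pairings) and Spearman rho = 0.486 (exact permutation p = 0.356), the 1 relation tested. Without model replicate 2 and GLE replicate 1, the tumours farthest from the median of miR-221-3p, r was 0.379. Taken as deviations from the group means, r was 0.034. The sign of r turned with the scaling: it was -0.30 with arrays scaled on their median, -0.49 after quantile normalisation, 0.84 (exact permutation p = 0.0458) with no scaling and 0.78 (exact permutation p = 0.0764) with scaling on the labelling spike-ins. Without scaling, both members carry the brightness of each array, whose 75th percentile intensity ran from 203 to 364. The r and p without scaling therefore cannot show that the members vary together. With outlier spots kept r was 0.57. Under the reported scaling miR-222-3p split the tumours into 2 and 4, and r changed sign with the scaling, so these coefficients describe the arrays only. By r, miR-222-3p ranked at 98 of 387 among the tested miRNAs most like miR-221-3p, and miR-221-3p at 198 of 387 among those most like miR-222-3p.

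Under the reported scaling miR-221-3p was among the steadiest miRNAs of these tumours. Its SD over the 6 tumours was 0.10, and 4.12% of the 388 tested miRNAs had a lower one, against a median of 0.28 over all tested miRNAs. For miR-222-3p the SD was 0.21, and 30.7% had a lower one. Within groups the SDs were 0.11 for miR-221-3p and 0.15 for miR-222-3p, against a median of 0.28. Both were therefore less variable between tumours of a group than most tested miRNAs, as a description of these arrays. These ranks were not computed under other scalings. The SE of the miR-221-3p difference in the limma fit was 0.16 as reported and 0.14 after quantile normalisation. With the labelling spike-ins it was 0.31, and with no scaling 0.36. This SE also draws on the spread of all tested miRNAs, so it does not measure the spread of miR-221-3p alone. By size of difference miR-222-3p ranked at 113 and miR-221-3p at 341 of 388, and by p at 37 and 325. The median difference over all tested miRNAs was 0.0078, with 198 positive and 190 negative.

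**Figure D2:**
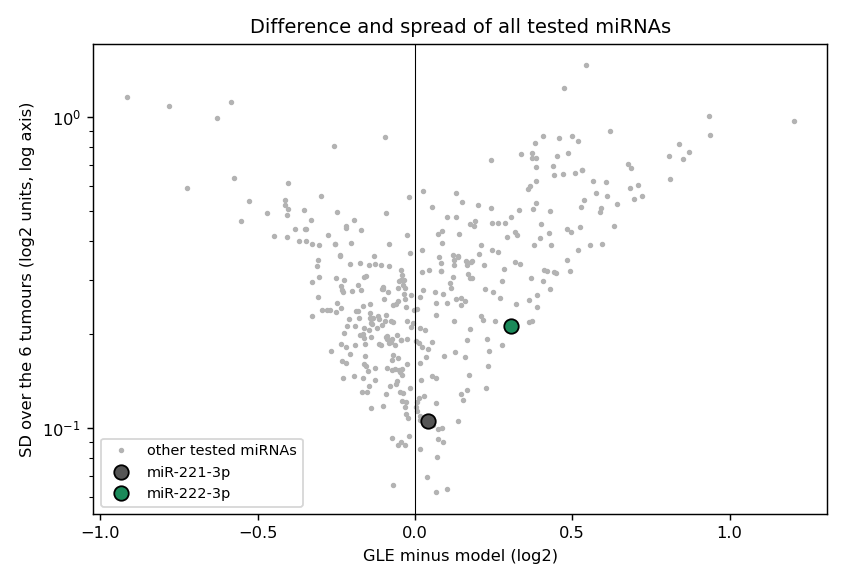
Each of the 388 tested miRNAs is a point, with GLE minus model (log2) on the horizontal axis and the SD over the 6 tumours (log2 units, log axis) on the vertical axis. miR-221-3p (0.040, SD 0.10) lies near 0 at the lower end of the cloud, and miR-222-3p (0.31, SD 0.21) at its lower right edge.

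Processing moved miR-221-3p by less than its reported SE and miR-222-3p by at most about its reported SE. Over the 15 alternatives that kept every array, miR-221-3p ran from -0.049 to 0.12 and miR-222-3p from 0.13 to 0.38, and 0 of them called either one (limma adjusted p from 0.735 to 1 for miR-221-3p and from 0.433 to 1 for miR-222-3p). The groups of miR-222-3p did not overlap under 10 of these 15 and overlapped under 5, and those of miR-221-3p overlapped under all 15. The filters on dim probes, the higher floor, the other variance fit and the replicate block left both differences unchanged, so these settings only repeat the reported overlap. The lowest value of miR-222-3p, 0.13, came from the normexp background with an offset of 50 intensity units, and with the authors' processed values it was 0.19. Relative to the median of all tested miRNAs, miR-222-3p lay 0.27 to 0.30 higher and miR-221-3p 0.0079 to 0.036 higher over the 6 scalings tried, the reported one included. The lowest value of each came from quantile normalisation. The other scalings use at most 1 factor per array, which shifts nearly all miRNAs alike, so their likeness here was fixed in advance.

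The authors' deposited table of processed values, on a log2 scale, listed miR-222-3p at 5.86, 5.76 and 5.84 for the GLE tumours, in order of replicate, and at 5.68, 5.59 and 5.62 for the model tumours. In the authors' deposited table miR-221-3p stood at 5.44, 5.705 and 5.55 in the GLE tumours and at 5.78, 5.47 and 5.54 in the model tumours. The groups of miR-222-3p did not overlap there and those of miR-221-3p did. miR-221-5p, miR-222-5p and miR-1928 were at the lowest value of every column of the authors' deposited table.

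**Figure D3:**
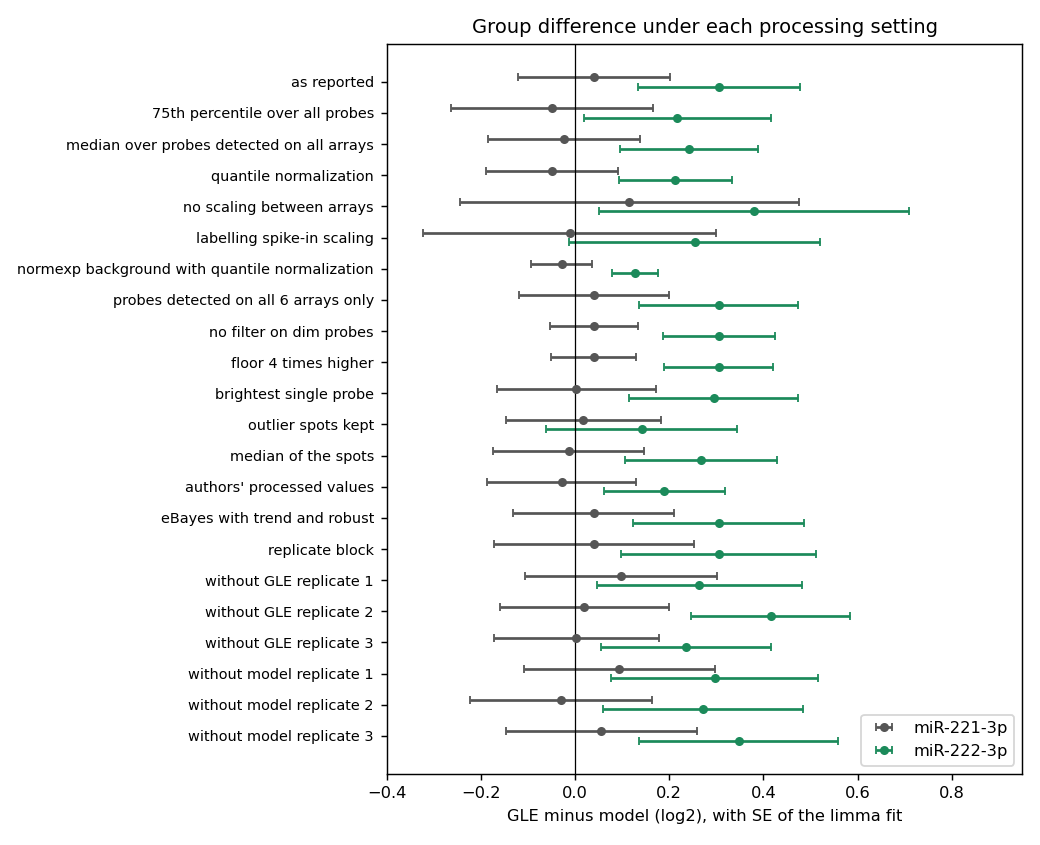
Points give GLE minus model (log2) of miR-221-3p and miR-222-3p under each processing setting, with bars of ± 1 SE of the limma fit. miR-222-3p lies between 0.13 and 0.42 in all settings, and miR-221-3p between -0.049 and 0.12, on either side of 0.

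Other miRNAs with a place in liver cancer or the cell cycle were described by count, in lists whose members were picked from knowledge of these miRNAs. By limma, 0 of the listed miRNAs had an adjusted p below 0.05 over all tested miRNAs, and in the 3 lists of this kind 0 had an unadjusted p below 0.05. In the list of miRNAs raised in hepatocellular carcinoma, which holds both members, 7 of 11 were tested, with 4 positive and 3 negative differences and a median of 0.040. Its largest moderated statistics belonged to miR-21a-5p, a growth-promoting miRNA, at 0.39 ± 0.18, and miR-155-5p of activated lymphocytes and macrophages at 0.71 ± 0.35. The other 4 listed miRNAs, miR-224-5p and the arms miR-182-5p, miR-183-5p and miR-96-5p, were detected on 0 arrays. The pair belonged to the measurable part of that list. Its split turned to 3 positive and 4 negative under 7 of 13 alternatives, through the sign of miR-221-3p.

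miR-221 and miR-222 promote the cell cycle through Cdkn1b, and the miR-17-92 cluster and its paralogues do so through other brakes such as Cdkn1a. In that list all 10 tested of 11 members had a negative difference, with a median of -0.22, except without scaling, where 1 was positive (median -0.15). Without GLE replicate 3, 8 of the 10 were positive (median 0.043), so that direction rested on 1 array, and without model replicate 3, 1 was positive. miR-17-5p stood at -0.35 ± 0.28 and miR-93-5p at -0.35 ± 0.31. Among growth-restraining miRNAs that target cyclins, their kinases or MYC, 7 of 10 were positive and 3 negative (median 0.14). miR-195a-5p was at 0.64 ± 0.31 and miR-497a-5p at 0.59 ± 0.30, both of the miR-15 seed family. The positive members of this list numbered 5 to 8 over 13 alternatives and 5 to 10 with 1 array left out. For comparison, 198 of all 388 tested miRNAs were positive.

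The miRNAs most like each member over the 6 tumours were of different kinds. Likeness was Pearson's r of the log2 values over 6 arrays that share 1 slide and 1 scaling, and no test was made of it. miR-221-3p was nearest to miR-669n (r = 0.901), miR-574-5p (0.828), miR-3082-5p (0.826), miR-1187 (0.817) and miR-706 (0.803), and farthest from miR-5131 (-0.885) and miR-7047-5p (-0.868). miR-222-3p was nearest to miR-15a-5p (r = 0.990), miR-10b-5p (0.988), miR-22-3p (0.987), miR-532-5p (0.986) and miR-21a-5p (0.985), and farthest from miR-125b-5p (-0.962) and miR-3473a (-0.930). The 5 nearest to miR-222-3p all had a positive difference, from 0.36 for miR-15a-5p to 0.72 for miR-10b-5p. With GLE replicates 1 and 3 apart from the other 4 tumours in miR-222-3p under the reported scaling, these coefficients describe mainly that split.

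Under the reported scaling, most markers of endothelial, blood lineage, fibroblast and smooth muscle cells moved with miR-222-3p. How many did so depended on the scaling and on outlier spots. The endothelial marker miR-126a-3p was at 1.88, 1.52 and 2.00 for the GLE tumours, replicates 1 to 3, and at 1.44, 1.20 and 1.29 for the model tumours, with miR-126a-5p detected on 3 arrays and not tested. The mean of 5 blood lineage markers was 0.23, -0.76 and 0.77 in the GLE tumours and -0.86, -0.96 and -0.31 in the model tumours. The mean of 6 fibroblast and smooth muscle markers was -1.71, -2.43 and -1.01 against -2.28, -2.50 and -2.01. In all 3 lists GLE replicate 3 was highest, GLE replicate 1 next and model replicate 2 lowest, as for miR-222-3p. GLE replicate 2 stood at rank 3 for miR-222-3p and for the endothelial marker. It stood at rank 4 in the blood lineage list and at rank 5 in the fibroblast and smooth muscle list.

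Of these 12 tested markers, 11 had r of at least 0.8 to miR-222-3p (median 0.934, from 0.102 for miR-145a-5p to 0.979 for miR-342-3p of blood cells) and 0 had it to miR-221-3p (median 0.295). This count, chosen after the values were seen, depended on the scaling and on outlier spots. Over 13 alternatives it ran from 1 to 11 for miR-222-3p, with a median r of 0.517 to 0.944, and from 0 to 2 for miR-221-3p, with a median r of -0.395 to 0.311. The lowest count for miR-222-3p, 1, came with outlier spots kept and with the authors' processed values. How many of all tested miRNAs had r of at least 0.8 to miR-222-3p was not counted. Some growth-restraining miRNAs had it too, such as miR-15a-5p (0.990) and miR-16-5p (0.965), and others did not, such as miR-26a-5p (-0.752). Such an r was therefore not particular to these markers. Among the tested erythrocyte, muscle and hepatocyte markers the highest r to miR-222-3p was 0.469, for miR-1a-3p. The part of the cells that the 12 markers stand for in the level of miR-222-3p was not tested.

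The mean difference of these markers was positive in 11 of 12, against 198 of all 388 tested miRNAs. By limma 0 of the 12 had an adjusted p below 0.05 and 2 an unadjusted one, against 6 of all 388 (1.55%). These 3 lists were put together after the values were seen, so the shares are a description and not a test. The sizes depended on single arrays. Without GLE replicate 3 the median fell from 0.84 to 0.42 in the blood lineage list and from 0.64 to 0.23 in the fibroblast and smooth muscle list, and without GLE replicate 2 they were 1.30 and 1.05. miR-126a-3p was at 0.49 ± 0.19, miR-342-3p at 1.21 ± 0.51, miR-150-5p of mature lymphocytes at 0.85 ± 0.41, miR-199a-3p of mesenchymal cells at 0.81 ± 0.44 and miR-214-3p at 0.61 ± 0.39. Markers of other sources ordered the tumours differently. Their differences were positive in 2 of 3 muscle, 2 of 2 hepatocyte and 0 of 2 erythrocyte markers tested, with 0 at a limma unadjusted p below 0.05. The mean of the 2 tested erythrocyte markers was highest in model replicate 3 (1.17) and lowest in GLE replicate 3 (-0.60), where miR-222-3p was highest. The mean of 3 muscle markers was highest in GLE replicate 1 (-0.39) and lowest in model replicate 1 (-2.60); r of the single muscle markers to miR-221-3p ran from -0.793 for miR-206-3p to -0.694 for miR-1a-3p. The mean of the 2 tested hepatocyte markers, miR-192-5p and miR-194-5p, was highest in GLE replicate 2 (-0.35) and between -3.97 and -2.23 in the other 5 tumours.

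**Figure D4:**
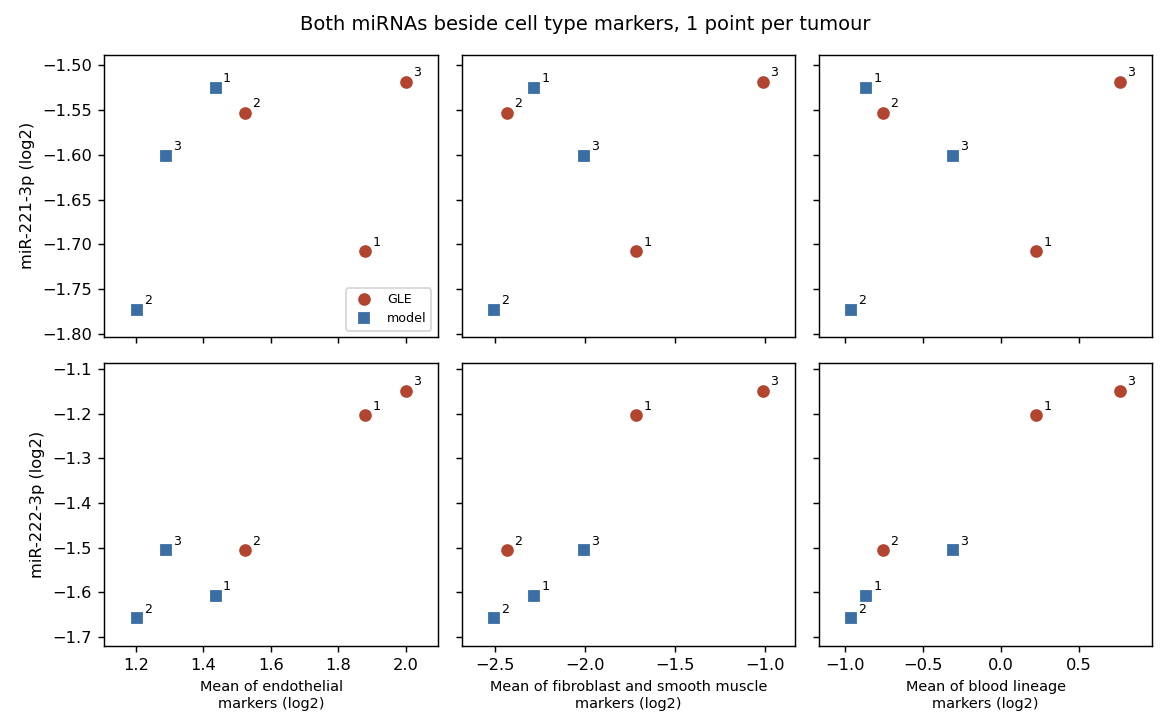
Each point is 1 tumour (circles GLE, squares model, numbered by replicate), with the mean log2 level of a marker list on the horizontal axis and the log2 level of miR-221-3p (upper row) or miR-222-3p (lower row) on the vertical axis. GLE replicates 1 and 3 lie at the upper right in every lower panel, whereas in the upper row GLE replicate 1 (-1.71) lies below GLE replicate 2 (-1.55).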

How the data were processed

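Total RNA of 6 tumours, extracted with TRIzol per the labels, was labelled with Cy3 and hybridised to 1-colour Agilent miRNA arrays. Per the file headers, the deposited spot intensity values were made with Agilent Feature Extraction 10.7.1.1, which subtracted background and a spatial trend and did not scale arrays to each other. The authors' deposited table holds log2 values, made by steps not given in the sources used here. Each column's median (-3.32 to -3.13) equals its lowest value; scale and centring beyond that stay unknown, and it served as an alternative only.

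In R 4.3.3 with limma 3.58.1, spots flagged as outliers were dropped and each probe's remaining spots averaged. A probe counted as detected when a share above 0.5 of these was well above background. Division by the 75th percentile of the 636 probes that all 6 arrays detected scaled each array, before a floor (-4.25 on the log2 scale) and the log2. A miRNA was the mean of its probes detected on every array of at least 1 group, which left 388. lmFit and eBayes compared the groups, two-sided. Degrees of freedom were 4 residual and 3.05 prior, and p-values were adjusted by Benjamini-Hochberg. The fit was tested on simulated data. Probe means were 0% identical between arrays.

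Named miRNAs are the members, their 5p arms, seed sharers, up to 2 of each list by moderated statistic, and the 5 most and 2 least like each member by r. Others (miR-122-5p, miR-802-5p, miR-224-5p, miR-182-5p, miR-183-5p, miR-96-5p, miR-126a-5p, miR-145a-5p, miR-206-3p) were chosen for naming once values had been seen. The members and lists were chosen with earlier results of these data known. The alternatives were other scalings, background, filters, floor, probe and spot summaries, the authors' values, a replicate block and 1 array left out; list and marker counts under them were added after seeing the data.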

Additional observations from a re-analysis of the deposited data

How the results depend on the processing

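The sign of miR-221-3p was not settled. Its difference was -0.048 with the 75th percentile over all probes, -0.024 with the median of the detected probes, -0.049 with quantile normalisation, -0.011 with the labelling spike-ins, -0.028 with the normexp background, -0.014 with the median of the spots and -0.028 with the authors' processed values. The cause of these turns was not tested. With 1 array left out it ran from -0.030 (without model replicate 2) to 0.097. miR-222-3p kept its sign and its side of the threshold under every alternative run, including those that could not change its value. With 1 array left out, miR-222-3p ran from 0.24 (without GLE replicate 3) to 0.42 (without GLE replicate 2). The difference of the 2 members kept its sign, from -0.40 to -0.17 with 1 array left out.

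The correlation of the members was -0.30 with the median scaling, -0.49 with quantile normalisation, -0.51 with normexp, -0.010 with the brightest probe, -0.066 with the median of the spots, -0.11 with the authors' values, 0.015 with the 75th percentile over all probes, 0.57 with outlier spots kept, 0.78 with the spike-ins and 0.84 without scaling. Of all tested miRNAs, 0 passed limma's test under the 15 alternatives that kept every array (3 to 17 at an unadjusted p below 0.05), and 0 to 2 with 1 array left out (2 without GLE replicate 2, with 107 at an unadjusted p below 0.05, against 0 to 5 for the other 5 arrays).

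The replicate numbers, which also mark the column on the slide, are not stated to pair the tumours. Correlations of same-numbered deviations were mixed in sign (-0.62, -0.184 and 0.375), and pairing is not settled by them. With a replicate block the differences stayed at 0.040 and 0.31 (limma adjusted p = 0.980 for both), and the difference of the members at -0.27 (exact permutation p = 0.5 over sign flips). The count of calls stayed at 0, with 17 miRNAs at a limma unadjusted p below 0.05 under the block and 6 without it. A slide block was not run, since there was 1 slide. With 3 tumours per group, changes inside the intervals given above stay undecided, and the ends of these intervals are not limits of detection.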
